A study of Homo sapiens with 24 samples.

Results

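The response to dexamethasone (dex) was analyzed in Nalm6 cells that expressed a short hairpin RNA against G9a (shG9a). The members were the 6 shG9a libraries, 3 treated with 100 nM dex and 3 with the vehicle ethanol for 8 h, out of 24 libraries in all. They were taken by their names in the count table and compared with the replicate number as a block, since replicates were, by the labels, done on different days. The other 18 libraries came from cells with a non-specific hairpin (shNS) or hairpins against GLP (shGLP) or HP1γ (shHP1γ), under the same dex or ethanol treatments, again with 3 replicates each. Nalm6 is an established line of human acute lymphoblastic leukemia with the features of a B-cell precursor. Cells of every group, shNS included, had been transduced with a lentiviral vector, and puromycin-resistant populations rather than single clones were used. The serum in the medium was not described as hormone-free.

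Dex is a synthetic glucocorticoid. It binds the glucocorticoid receptor, a transcription factor that then activates or represses genes in the nucleus, and in leukemic B-cell precursors this program ends in arrest and cell death, which is why glucocorticoids are given in this disease. G9a and its partner GLP are methyltransferases of lysine 9 of histone H3, best known as repressors, and at some receptor target genes they act as coactivators together with HP1γ. The comparison asks which genes the hormone still regulates, and by how much, when G9a is depleted.

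Each measurement is a count of reads on 1 RefSeq transcript (an accession), and levels are given as normalized CPM, counts scaled to library size by the upper quartile of each library. The 24 totals ran from 9289533 to 14387770 counts, and those of the shG9a libraries from 10220732 to 14387770. Among genes with any counts, 76.6% of the accessions of genes with 5 or more accessions and 44.97% of those of genes with 2 to 4 were at 0 in every library. How reads on exons shared by several accessions were counted is not given in the sources used here, so a 0 for an accession is not read as a level of its gene. Among markers of B-cell precursors CD79B, DNTT, CD24 and TCF3 are listed at 0, from which no level can be read. Of the other markers RAG1, a recombinase of developing lymphocytes, had 23840 to 32723 counts per shG9a library. T-cell markers had a summed level of at most 0.177 CPM, with 6 of 10 at 0. Those 0s are likewise not read as absence of the genes. The mRNA of G9a itself (gene EHMT2) was not analysed here, so the depletion is taken from the labels.

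1 library stands apart, the dex-treated shG9a library of replicate 2. Its root mean square log2 difference from the other replicates of its group was 0.384 over 4667 transcripts with at least 10 CPM, the highest of 24 libraries, whose other values ran from 0.119 to 0.329. Of these transcripts, 85 were at least 2-fold lower in it than the mean of the other dex replicates and 5 were at least 2-fold higher, against 0 or 1 lower and 25 higher in each of the other dex-treated shG9a libraries. It also had the highest total of all libraries. Pseudogene transcripts made up 28 of the 85, and 210 of all 4667. For 45 ribosomal protein genes the median log2 difference was 0.49, beside -0.14 and -0.36 in dex replicates 1 and 3. The values of dex replicates 1 and 3 are each taken against a mean that includes replicate 2. Each result below is therefore given with this library and, where its call changed, without it. The part of this library's difference in a result was not tested beyond that. The next most distant libraries were replicate 1 of both shHP1γ groups.

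**Figure D1:**
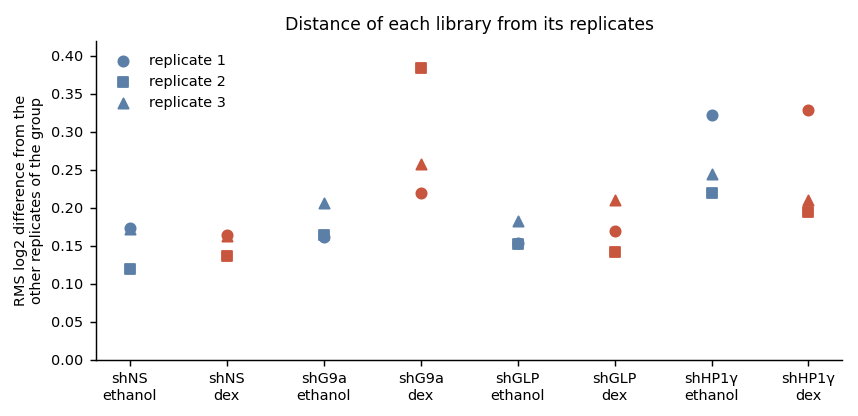
Root mean square log2 difference (y axis) of each of 24 libraries from the mean of the other replicates of its group (x axis), over 4667 transcripts, with dex libraries in red, ethanol libraries in blue and a symbol per replicate. The dex-treated shG9a library of replicate 2 has the highest value, 0.384.

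Dex changed 634 of 10167 tested transcripts in shG9a cells (6.24%; quasi-likelihood test of edgeR, Benjamini-Hochberg adjusted p up to 0.05). Among them, 331 rose (3.26%) and 303 fell (2.98%). The rises were larger than the falls: their median log2 fold change was 0.65 and that of the falls was -0.32, beside 0.0048 over all tested transcripts. At a change of at least 2-fold 126 were called (1.24%), of which 108 rose (1.06%) and 18 fell (0.177%). Transcripts that fell were abundant, with a median of 151 CPM over the 6 libraries, beside 26.3 CPM for those that rose and 6.97 CPM for all tested transcripts. Among the rises, 329 of 331 were higher with dex in 3 of 3 replicate pairs, and in 291 the dex and ethanol libraries did not overlap, which held in the upward direction for 8.94% of all tested transcripts. Among the falls, 298 of 303 were lower in 3 of 3 pairs and 255 did not overlap, beside 8.26% of all. The calls were made on these same libraries, so agreement between pairs describes the calls and is not further evidence for them. Many of these changes were small, since 285 of the 634 were under 1.3-fold.

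Without the dex library of replicate 2, 333 transcripts were called (3.28%), 221 higher (2.17%) and 112 lower (1.10%). The direction of all 634 transcripts was the same in that fit. Of the calls, 201 of 331 rises and 97 of 303 falls were called again, and at 2-fold or more 85 of 108 rises and 6 of 18 falls. A fit of the shG9a libraries alone went the other way: it called 145 transcripts, 122 higher and 23 lower, and, without the same library, in a fit added after seeing the data, 990, 436 higher and 554 lower. Named transcripts that were lost without that library in the fit of all groups are pointed out below. Other single shG9a libraries were left out of the fit of all groups as well. The calls were 845 and 699 without dex replicates 1 and 3, of which 434 and 326 were lower. They were 459, 318 and 354 without ethanol replicates 1, 2 and 3, of which 207, 111 and 156 were lower. A lost call is thus not by itself read as an effect of the distant library. Without the replicate block, 227 transcripts were called, 154 higher and 73 lower.

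**Figure D2:**
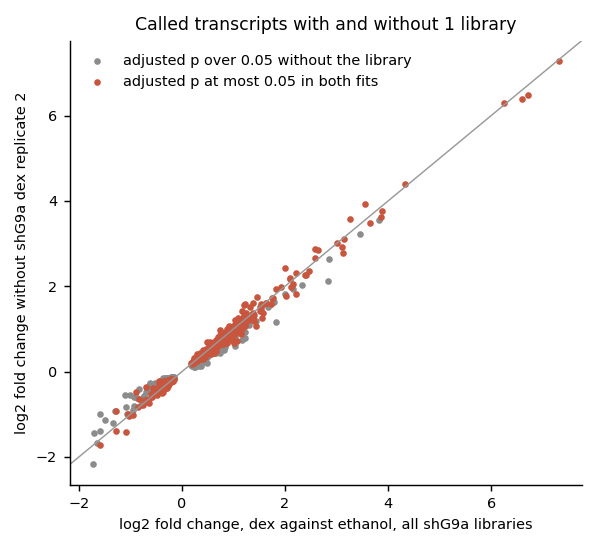
Log2 fold change of dex against ethanol in shG9a cells for the 634 called transcripts, with all libraries (x axis) and without the dex library of replicate 2 (y axis); red points passed in both fits, gray points only with all libraries, and the line marks equal values. Directions are the same throughout, and gray points are denser among the falls, of which 97 of 303 passed in both.

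The largest rises were of transcripts that were low in ethanol. The first belonged to OR7A5 (NM_017506; chr19:14937053-14945997, GRCh37, minus strand), an olfactory receptor gene, which had 0, 1 and 0 counts in the ethanol libraries and 93, 85 and 62 with dex. Its level with dex was 8.03, 6.11 and 5.41 CPM, and the ratio of summed, scaled counts was 221 with a counting interval from 39.3 to 8759. TSC22D3 (GILZ, an anti-inflammatory leucine zipper protein and a standard marker of receptor activity; NM_004089) lies at chrX:106956451-107020572 on the minus strand. It rose from 4.09, 2.75 and 2.48 CPM in ethanol to 49.3, 51.7 and 35.9 CPM in dex. Its log2 fold change was 3.89 (SE 0.19, adjusted p = 2.06e-12, edgeR), and 3.77 without the dex library of replicate 2. The dex libraries lay far above all ethanol libraries.

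P2RY14, a receptor for UDP-sugars, rose from 0.195, 0.0859 and 0.331 CPM to 4.49, 4.095 and 4.54 CPM, a log2 fold change of 4.33 (SE 0.40, adjusted p = 1e-07, edgeR). GPR171, a G protein-coupled receptor gene next to it on chromosome 3, rose from 1.46, 1.03 and 2.31 CPM to 13.04, 7.26 and 9.69 CPM. KLF2, a transcription factor of lymphocyte quiescence (chr19:16435637-16439496), rose from 1.46, 1.117 and 1.07 CPM to 17.1, 16.1 and 12.2 CPM (log2 fold change 3.64, SE 0.47, adjusted p = 1.47e-05, edgeR). These transcripts were near the detection limit or low in ethanol and clearly expressed in each dex library.

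RASSF4, a member of the RAS association domain family, rose from 5.16, 5.41 and 2.81 CPM to 33.9, 38.4 and 34.2 CPM, with a log2 fold change of 3.00 (SE 0.20, adjusted p = 8.69e-10, edgeR). HEYL, a transcriptional repressor of the Notch pathway, rose from 1.46, 2.66 and 2.73 CPM to 9.07, 13 and 16.3 CPM. KDR, a receptor for vascular endothelial growth factor, rose from 0.292, 0.602 and 0.165 CPM to 2.85, 2.80 and 2.10 CPM, but its adjusted p was 0.0213 with and 0.103 without the dex library of replicate 2 (edgeR). The long non-coding RNA LINC00319 rose from 0.292, 0.172 and 0.331 CPM to 2.16, 1.44 and 4.54 CPM. The exonuclease gene ISG20 went from 0.0974, 0.859 and 0.165 CPM to 2.94, 3.52 and 3.93 CPM. BFSP2-AS1 and GSN-AS1, annotated antisense to protein-coding genes, had log2 fold changes of 3.12 and 3.11. How the counting treated strand is not given in the sources used here, so for these transcripts reads of the sense gene cannot be told apart. Non-coding (NR) accessions made up 33 of the 108 rises of at least 2-fold (30.6%) and 22.4% of all tested accessions, and 20 of the 108 averaged under 1 CPM.

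Abundant transcripts rose by less. LAPTM5, a lysosomal membrane protein of hematopoietic cells, rose from 1644, 1660 and 1514 CPM to 2797, 2588 and 2728 CPM, a log2 fold change of 0.75 (SE 0.07, adjusted p = 4.98e-08, edgeR). CHST2, a sulfotransferase, rose from 1902, 1823 and 1886 CPM to 2566, 2597 and 2733 CPM. The adhesion molecule MCAM (CD146) rose from 517, 502 and 537 CPM to 957, 1048 and 973 CPM, and its log2 fold change of 0.94 had an SE of 0.05. In these 3 transcripts no ethanol library reached the lowest dex library. MT1X, a metallothionein, ADPRHL1 and MLXIP, a glucose-sensing transcription factor, rose by 0.37, 0.43 and 0.28 on the log2 scale. FADS3, a fatty acid desaturase family gene, had a log2 fold change of 0.36, with overlapping groups, and was not called without the dex library of replicate 2 (0.22, adjusted p = 0.142, edgeR).

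**Figure D3:**
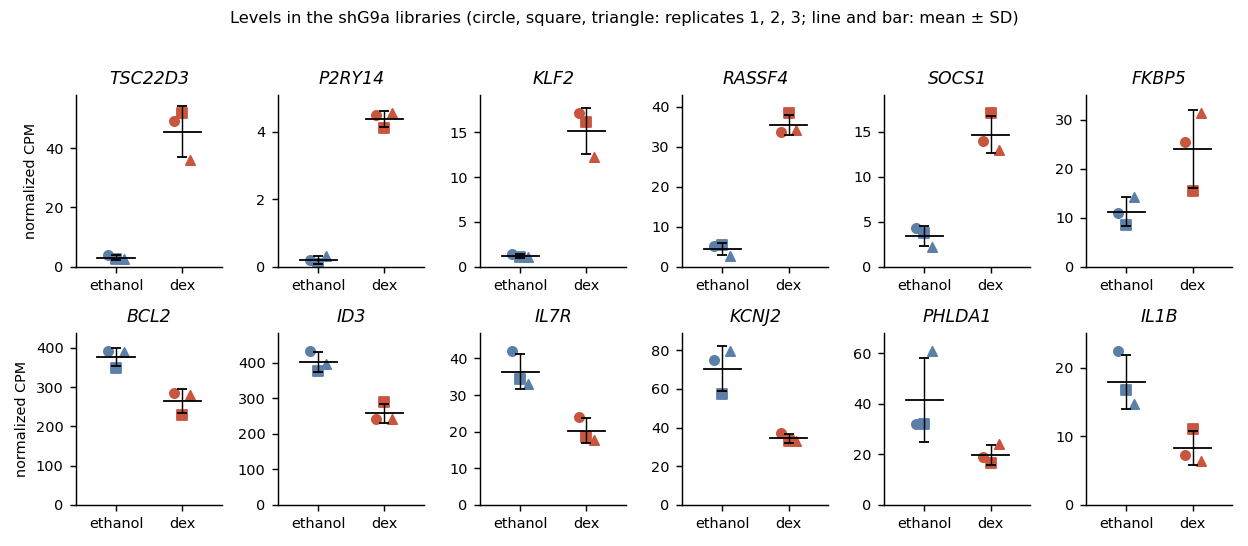
Normalized CPM (y axes, from 0) of 6 transcripts that rose and 6 that fell in shG9a cells, in the ethanol (blue) and dex (red) libraries; symbols mark replicates 1, 2 and 3, and lines and bars the mean ± SD (n = 3). In each panel no dex library lies within the range of the ethanol libraries.

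The receptor binds DNA as a dimer at an inverted repeat, the glucocorticoid response element. Promoter windows of 300 bases, from 250 before to 50 after annotated starts, were searched for GNACANNNTGTNC, which is its own reverse complement, so 1 search covers both strands. Windows come from RefSeq (GRCh38.p14, another build than the count table, joined by gene symbol). Of 95 genes with a rise of at least 2-fold, 67 had a window, and in 4 of them (5.97%) it held a match. The shares were 2.60% of 231 genes called higher, 0.00% of 237 called lower, 0.301% of 6969 tested genes and 0.480% of 27305 genes with any window. The looser half-site AGAACA (or TGTTCT on the other strand, which also lies within some full matches) was in 17.9% of the 67 genes, 30 of the 231 genes called higher, 9.28% of those called lower, 12.3% of the tested genes and 17.5% of the genes with any window. A match is a description of letters, and no match says only that they are not in this window. The 6 genes called higher with a match were OR7A5 and OR7C1, which share 1 window, CHST7, LINC00689, KCNA5 and TXNIP. The olfactory receptor gene OR7C1, the sulfotransferase gene CHST7, LINC00689 and the potassium channel gene KCNA5 are named for their windows after their values were seen. Windows of OR7A5, CHST7, LINC00689 and TXNIP are shown because they show how the match sits upstream of genes that rose, with the match in capitals:
OR7A5: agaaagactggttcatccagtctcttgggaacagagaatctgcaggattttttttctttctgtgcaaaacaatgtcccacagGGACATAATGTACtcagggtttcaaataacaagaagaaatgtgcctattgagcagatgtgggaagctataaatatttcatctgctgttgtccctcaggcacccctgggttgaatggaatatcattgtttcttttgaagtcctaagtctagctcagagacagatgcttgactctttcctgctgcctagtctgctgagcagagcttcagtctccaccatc
CHST7: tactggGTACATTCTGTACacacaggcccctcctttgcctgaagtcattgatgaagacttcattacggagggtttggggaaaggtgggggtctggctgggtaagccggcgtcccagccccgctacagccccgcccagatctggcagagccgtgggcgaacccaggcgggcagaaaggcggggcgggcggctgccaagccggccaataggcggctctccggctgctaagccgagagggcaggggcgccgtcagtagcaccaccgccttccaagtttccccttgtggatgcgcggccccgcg
LINC00689: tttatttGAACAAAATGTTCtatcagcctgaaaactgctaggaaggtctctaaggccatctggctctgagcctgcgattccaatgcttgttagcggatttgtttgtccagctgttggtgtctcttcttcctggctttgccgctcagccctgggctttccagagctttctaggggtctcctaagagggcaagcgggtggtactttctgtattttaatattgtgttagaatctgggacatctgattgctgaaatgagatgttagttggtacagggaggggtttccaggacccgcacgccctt
TXNIP: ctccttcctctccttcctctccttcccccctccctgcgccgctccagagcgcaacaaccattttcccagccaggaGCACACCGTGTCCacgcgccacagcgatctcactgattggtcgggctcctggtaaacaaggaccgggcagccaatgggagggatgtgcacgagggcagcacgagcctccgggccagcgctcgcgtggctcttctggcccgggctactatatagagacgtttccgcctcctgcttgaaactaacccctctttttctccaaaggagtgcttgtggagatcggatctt
These windows are, in that order, chr19:14835136-14835435 (minus strand), chrX:46573515-46573814 (plus), chr7:159008104-159008403 (plus) and chr1:145996530-145996829 (minus) of GRCh38.p14, and the matches begin 168, 244, 243 and 175 bases before the start. CHST7 rose from 88.2, 75.5 and 82.0 CPM to 265, 249 and 242 CPM, a log2 fold change of 1.62, and LINC00689 had a log2 fold change of 1.39.

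Genes known as glucocorticoid targets were then taken as a list. Of its 25 genes 21 were tested, counting 1 accession per gene, and 15 rose (71.4%) while 1 fell, beside 3.35% and 3.2% of all 9386 tested genes. The same counts were obtained without the dex library of replicate 2, beside 211 rises and 111 falls over all tested genes in that fit. The shares of all tested genes apply to each list below as well, and a single call in a list is not read as a result about that list. The list was compiled with earlier results from these libraries known, so its count is not independent evidence of a direction. Its median log2 fold change was 0.78 in shG9a cells and 1.25 in shNS cells, beside 0.0038 and -0.029 over all tested genes.

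FKBP5, a co-chaperone that restrains the receptor, rose from 10.9, 8.42 and 14.3 CPM to 25.5, 15.5 and 31.3 CPM. Its log2 fold change was 1.09 (SE 0.15, adjusted p = 3.49e-05, edgeR), and it was 1.26 without the dex library of replicate 2, which held the lowest of the dex values. SOCS1, an inhibitor of cytokine signaling, rose from 4.29, 3.78 and 2.15 CPM to 13.99, 17.03 and 13.01 CPM. TXNIP, the thioredoxin-interacting protein that limits glucose uptake, rose from 24.1, 28.2 and 18.7 CPM to 43.4, 43.0 and 30.8 CPM, a log2 fold change of 0.72 (SE 0.10, adjusted p = 2.63e-05, edgeR). The immune receptor gene LILRA2 rose from 0.390, 0.258 and 0.165 CPM to 1.295, 1.01 and 1.22 CPM. KLF9, a transcription factor, rose by 0.78 and NFKBIA, the inhibitor of NF-κB, by 0.88 on the log2 scale. LDLRAD4, an attenuator of TGF-β signaling, and ARHGAP6, a GTPase-activating protein, had log2 fold changes of 1.23 and 0.96, the latter with an adjusted p of 0.0125, or 0.0939 without the dex library of replicate 2 (edgeR). The zinc finger gene ZNF831 did not pass: its level was 13.5, 15.6 and 14.04 CPM in ethanol and 26.25, 20.7 and 28.3 CPM in dex (log2 fold change 0.79, SE 0.26, adjusted p = 0.0743, edgeR), although its groups did not overlap.

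Of 10 tested genes of the receptor and its chaperones 0 rose and 1 fell, and of 9 receptor coregulators 0 rose and 1 fell. With 3.2% of all tested genes lower, 1 call in lists of this length is not read as a result. Without the dex library of replicate 2, 0 were called in either list. The receptor transcript NR3C1 (NM_001204265, 1 of its several accessions) had 1.85, 2.06 and 2.81 CPM in ethanol and 3.89, 1.72 and 2.79 CPM in dex (log2 fold change 0.32, SE 0.36, adjusted p = 0.674, edgeR). HSPA8, a constitutive chaperone, fell from 1376, 1413 and 1715 CPM to 1170, 1363 and 1416 CPM, with overlapping groups and an adjusted p of 0.0496 that became 0.0577 without that library (edgeR). NRIP1, a corepressor of nuclear receptors, fell from 502, 498 and 502 CPM to 421, 338 and 382 CPM (log2 fold change -0.40, adjusted p = 0.0387), and was -0.35 with an adjusted p of 0.177 without that library (edgeR). Of 13 tested genes of H3K9 methylation 0 were called. Among them EHMT1, which encodes GLP, had a log2 fold change of 0.047 (SE 0.20) and CBX3, which encodes HP1γ, of 0.015 (SE 0.19).

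Of 19 tested antiproliferative and FOXO-type genes 5 rose (26.3%) and 2 fell (10.5%), or 5 and 1 without the dex library of replicate 2. The shares over all tested genes were 3.35% and 3.2%. Besides KLF2 and TXNIP, the rises were of BTG1, BTG2 and DDIT4. BTG1, an antiproliferative cofactor, rose from 471, 482 and 433 CPM to 935, 953 and 858 CPM, a log2 fold change of 0.99 (SE 0.08, adjusted p = 1.85e-08, edgeR). Its relative BTG2 rose from 172, 199 and 138 CPM to 322, 412 and 295 CPM. DDIT4, an inhibitor of mTORC1, rose from 341, 494 and 233 CPM to 683, 763 and 684 CPM. In all 3 the dex libraries lay above the ethanol libraries. The falls were of ARRDC4 and IRS2, named after their values were seen. ARRDC4 fell from 26.1, 24.9 and 26.85 CPM to 18.6, 17.7 and 17.9 CPM (log2 fold change -0.53). Its adjusted p was 0.0133, and 0.0481 without the dex library of replicate 2 (edgeR). IRS2 had a log2 fold change of -0.28, with an adjusted p of 0.0491, and 0.264 without that library (edgeR). Of 18 DNA replication genes 0 were called in either direction, and of 16 mitosis genes 0 rose and 1, the spindle checkpoint gene MAD2L1, fell (-0.28, adjusted p = 0.0257, and -0.22, adjusted p = 0.156, without the dex library of replicate 2, edgeR). Of 20 genes of MYC and ribosome biogenesis 1 rose and 0 fell. The 1 that rose was MXD4, an antagonist of MYC (log2 fold change 0.63). MYC was in the table but below the limit on low counts.

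BCL2, the antiapoptotic protein that gives the family its name (chr18:60790579-60987361, minus strand), fell from 391, 350 and 390 CPM to 284, 228 and 279 CPM, a log2 fold change of -0.52 (SE 0.07, adjusted p = 1.79e-05, edgeR). Without the dex library of replicate 2, which held the lowest value, it was -0.43 (adjusted p = 9.27e-05, edgeR). It was the 1 called gene of 7 tested in its family, whose proapoptotic member BCL2L11 did not pass the limit on low counts. IL7R, the interleukin-7 receptor of early B cells, fell from 41.9, 34.3 and 33.0 CPM to 24.1, 18.6 and 17.8 CPM (log2 fold change -0.85, SE 0.12, adjusted p = 3.14e-05, edgeR). In both genes the dex libraries lay below all ethanol libraries.

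ID3, an inhibitor of E-protein transcription factors, fell from 432, 376 and 397 CPM to 243, 288 and 243 CPM (log2 fold change -0.64, SE 0.07, adjusted p = 5.9e-07, edgeR). It was 1 of 3 called of 12 tested B-lineage transcription factors, all 3 lower, beside 3.2% of all tested genes called lower. POU2AF1, a B-cell coactivator, fell from 249, 261 and 214 CPM to 185, 179 and 180 CPM. BCL11A fell from 107, 116 and 140 CPM to 86.5, 67.5 and 110 CPM, with overlapping groups, and was not called without the dex library of replicate 2 (-0.36, adjusted p = 0.126, edgeR). Of 11 tested genes of pre-B-cell receptor signaling 0 rose and 3 fell, the kinase subunit PIK3R1 (-0.55), the phospholipase PLCG2 (-0.34) and the adaptor LCP2 (-0.34). Without the dex library of replicate 2 the count was 0 of 11, with adjusted p of 0.109, 0.129 and 0.0527 (edgeR). Their log2 fold changes in that fit were -0.36, -0.33 and -0.32. CD79A, a component of that receptor, shows the library apart: its counts were 85, 96 and 89 in ethanol and 85, 19 and 86 in dex, and it was not called. PAX5 and VPREB1 did not pass the limit on low counts.

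Of 14 tested surface antigens 4 rose and 3 fell, or 4 and 2 without the dex library of replicate 2. Among all tested genes 3.35% rose and 3.2% fell. CD69, an early activation antigen, rose from 12.67, 12.03 and 12.06 CPM to 28.2, 28.2 and 22.4 CPM (log2 fold change 1.09, SE 0.20, adjusted p = 0.00127, edgeR). CD72, an inhibitory coreceptor of B cells, rose from 91.7, 97.3 and 59.6 CPM to 145, 175 and 110 CPM, and the chemokine receptor CXCR4 from 6.14, 5.07 and 5.205 CPM to 7.60, 12.4 and 10.1 CPM. Of 9 NF-κB and inflammatory genes 1 rose, NFKBIA, and 1 fell, IL1B, which encodes interleukin-1β. IL1B fell from 22.4, 16.8 and 14.8 CPM to 7.34, 11.1 and 6.46 CPM, a log2 fold change of -1.08 (SE 0.18, adjusted p = 0.000301, edgeR), and of -1.41 without the dex library of replicate 2. Of 20 genes of MAPK feedback and the immediate early response 2 rose and 2 fell. DUSP10, a phosphatase of stress kinases, rose from 5.07, 5.41 and 4.30 CPM to 12.8, 12.9 and 9.95 CPM, and DUSP6, a phosphatase of ERK, by 0.41 on the log2 scale with overlapping groups. The immediate early gene IER2 fell by 0.38, and SPRED1, an inhibitor of the RAS pathway, fell by 0.26, the latter not called without the dex library of replicate 2 (adjusted p = 0.25, edgeR).

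Of 19 tested genes of the amino acid response 0 rose and 5 fell (26.3%), beside 3.35% and 3.2% of all tested genes. The falls were 2 without the dex library of replicate 2. SLC7A11, the cystine transporter, fell from 49.0, 49.1 and 45.1 CPM to 31.9, 20.5 and 28.6 CPM, with a log2 fold change of -0.83 (adjusted p = 0.00144) and of -0.65 without that library (adjusted p = 0.0166, edgeR). SESN2, a leucine sensor, fell by 0.41 on the log2 scale and was also called in both fits. SLC7A5, the large neutral amino acid transporter, fell from 2554, 2448 and 2855 CPM to 2039, 1594 and 2499 CPM with overlapping groups. With TRIB3 (-0.51) and SLC3A2 (-0.84), SLC7A5 (-0.37) made up the 3 that were called only with the dex library of replicate 2, in which each had its lowest value.

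Of 16 tested genes of glycolysis 0 rose and 4 fell (25%), beside 3.35% and 3.2% of all tested genes. The falls were 3 without the dex library of replicate 2. HK2, the hexokinase of proliferating cells, fell from 809, 1115 and 750 CPM to 513, 595 and 647 CPM (log2 fold change -0.60, SE 0.11, adjusted p = 0.0008, edgeR). The glycolytic kinase gene PGK1 fell by 0.31 and the glucose transporter gene SLC2A1 by 0.42, and neither set of dex libraries overlapped the ethanol libraries. SLC2A3, another glucose transporter, was called with all libraries (-0.50, adjusted p = 0.0458) and not without that library (adjusted p = 0.177, edgeR). Of 16 sterol and fatty acid synthesis genes 1 rose, the lanosterol synthase gene LSS (log2 fold change 1.55), and of 15 interferon-stimulated genes 1 rose, ISG20. Of 11 clock genes 1 rose, PER1.

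**Figure D4:**
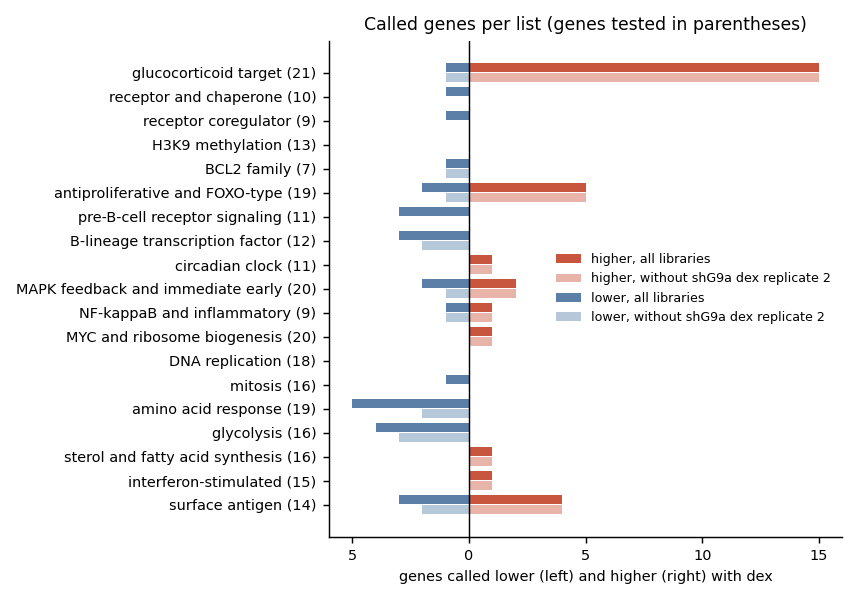
Number of genes called lower (to the left) and higher (to the right) with dex in shG9a cells for 19 gene lists (y axis, genes tested in parentheses), with all libraries (dark bars) and without the dex library of replicate 2 (light bars). The 15 rises among 21 glucocorticoid targets stand in both, whereas the falls in pre-B-cell receptor signaling drop from 3 to 0 and in the amino acid response from 5 to 2.

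Among the transcripts with the largest falls were an ion channel gene and non-coding RNAs. Non-coding (NR) accessions made up 4 of the 18 falls of at least 2-fold, and 22.4% of all tested accessions. KCNJ2, an inwardly rectifying potassium channel, fell from 75.0, 57.2 and 79.4 CPM to 37.2, 33.2 and 33.2 CPM (log2 fold change -1.03, SE 0.14, adjusted p = 2.05e-05, edgeR). PHLDA1, a pleckstrin homology-like domain protein, fell from 31.87, 32.05 and 60.72 CPM to 19.0, 16.45 and 24.2 CPM (log2 fold change -1.04, SE 0.14). In KCNJ2, PHLDA1 and IL1B the groups did not overlap, and each was called without the dex library of replicate 2 (adjusted p = 0.000134, 0.000208 and 7.61e-06, edgeR). KLHL7-DT, a divergent non-coding transcript, and DCPH1 both had log2 fold changes of -1.28. They stayed called without the dex library of replicate 2 (adjusted p = 0.0248 and 0.0472, edgeR). They passed in 9 and 11 of 14 alternative fits, and KLHL7-DT was lost without the ethanol library of replicate 3.

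Single libraries weighed in other large falls as well. APLN, which encodes the peptide apelin, had 6.24, 10.9 and 3.06 CPM in ethanol and 1.90, 2.87 and 1.40 CPM in dex (log2 fold change -1.66, adjusted p = 0.0127, and 0.0685 without the dex library of replicate 2, edgeR). MIR210HG, host of a hypoxia-induced microRNA, had 26.9, 38.6 and 5.70 CPM and then 6.39, 12.3 and 3.49 CPM, so the groups overlapped, and its adjusted p was 0.013 with and 0.0465 without the dex library of replicate 2 (edgeR). The mitophagy receptor gene BNIP3 had 281, 458 and 134 CPM and then 116, 161 and 116 CPM, also overlapping, and was not called without that library (adjusted p = 0.108, edgeR). In these 3 transcripts the ethanol library of replicate 2 held the highest value. SUMO2, a small ubiquitin-like modifier, had 9.45, 9.11 and 7.44 CPM and then 6.56, 0.719 and 5.41 CPM. EAF2, an elongation factor partner, had 1.75, 2.58 and 1.98 CPM and then 1.123, 0.144 and 0.961 CPM, and the pseudogene HNRNPA3P1, whose reads can be shared with its parent gene, 13.4, 11.8 and 10.99 CPM and then 7.60, 1.94 and 8.99 CPM. In SUMO2, EAF2 and HNRNPA3P1 the dex library of replicate 2 was the lowest by far, and none was called without it (adjusted p = 0.135, 0.114 and 0.0541, edgeR). Abundant transcripts that fell changed by little: SLC7A5, XRCC5, NUCKS1, YWHAQ, PGK1, HSPA8, SMARCC1 and YWHAG had log2 fold changes from -0.37 to -0.18, and of these XRCC5, PGK1, SMARCC1 and YWHAG were also called without that library.

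2 falls touch lists that mark other cells. GP5, a platelet glycoprotein gene, fell from 101, 99.7 and 109 CPM to 53.0, 46.1 and 62.4 CPM (log2 fold change -0.96, SE 0.22, adjusted p = 0.0104, edgeR). It carried nearly the whole sum of 10 erythroid and megakaryocyte markers, from 104 to 111 CPM in ethanol and 46.4 to 64.8 CPM in dex, while PF4 and PPBP were at 0. COL1A1, a collagen gene, had 33, 18 and 39 counts in ethanol and 19, 16 and 20 in dex, among epithelial and fibroblast markers of which 7 of 10 were at 0. Its adjusted p was 0.0442 with and 0.127 without the dex library of replicate 2 (edgeR). The log2 fold change was -0.80 with and -0.79 without it. The myeloid markers, 7 of 11 at 0, summed to 6.55 to 8.61 CPM in ethanol and 4.79 to 6.81 CPM in dex. As above, no level is read from markers listed at 0.

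The response was set beside that of the shNS, shGLP and shHP1γ cells, each with its own ethanol libraries. In shNS cells 1012 transcripts were called (9.95%), 457 higher (4.49%) and 555 lower (5.46%). Of the rises in shG9a cells 243 were also called higher in shNS cells, 73.4% of the shG9a and 53.2% of the shNS rises. Of the falls 162 were shared, 53.5% of the shG9a and 29.2% of the shNS falls, and 0 transcripts were called in opposite directions. In shGLP cells 334 transcripts were called (3.29%) and in shHP1γ cells 327 (3.22%). With shGLP 166 rises were shared (50.2% of the shG9a and 83.8% of the shGLP rises), and with shHP1γ 180 (54.4% and 83.3%). Of the falls 67 were shared with shGLP (22.1% of the shG9a and 49.3% of the shGLP falls) and 71 with shHP1γ (23.4% and 64.0%).

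To describe the size of the response, 64 transcripts were chosen on other libraries, as those called at least 2-fold higher in both shGLP cells (0.826% of all tested) and shHP1γ cells (0.856%). Their median log2 fold change was 1.59 in shG9a cells and 2.26 in shNS cells, and 55 of 64 changed less in shG9a than in shNS cells. The median in shG9a cells was 1.58 without the dex library of replicate 2, and 58 of the 64 were called with all libraries. In ethanol the shG9a level was a median of 0.015 above the shNS level on the log2 scale, and 30 of 64 were lower. In dex it was 0.50 below, and 58 of 64 were lower, beside a median of 0.0044 over all tested transcripts. The TSC22D3 transcript described above was among those that did not change less, with a log2 fold change of 3.89 in shG9a cells and 3.47 in shNS cells. Another TSC22D3 transcript of the 64, with 107 counts over 24 libraries, had 3.27 in shG9a and 6.70 in shNS cells. It was not called in shG9a cells, so the gene as a whole is not read as an exception. The 70 transcripts called lower in both shGLP and shHP1γ cells had a median of -0.29 in shG9a and -0.41 in shNS cells, and 66 changed less in shG9a cells.

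Single transcripts were tested for a difference of the responses in the same fit. Between shG9a and shNS cells 9 of 10167 transcripts passed (0.0885%, edgeR, adjusted p at most 0.05), beside 686 (6.75%) at an unadjusted p under 0.05, and in all 9 the response was the smaller one in shG9a cells. The count was 2 without the replicate block, 4, 0 and 0 without replicates 1, 2 and 3, 3 without the dex library of replicate 1, and 5 and 4 without the ethanol libraries of replicates 1 and 2. ID3 is the 1 whose response was a fall: it went from 402 ± 28.1 to 258 ± 26.3 CPM in shG9a cells and from 299 ± 2.91 to 118 ± 6.89 CPM in shNS cells (mean ± SD, n = 3). PER1, a repressor in the circadian clock and a direct receptor target, went from 172 ± 11.4 to 251 ± 59.0 CPM in shG9a cells and from 161 ± 24.4 to 382 ± 49.3 CPM in shNS cells. The others, CYTH3, CERNA2, DISP3, KCNK3, TMT1A, DEPP1 and BTNL9, also rose less. DEPP1 and BTNL9 fall outside the rule for named transcripts and were added after their values were seen. For TXNIP the log2 fold change was 0.72 in shG9a and 1.40 in shNS cells and the difference did not pass (adjusted p = 0.0549, edgeR).

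Against shGLP cells 0 transcripts differed by the same edgeR test, 513 (5.05%) had an unadjusted p under 0.05, and DESeq2 called 0. Against shHP1γ cells the counts were 0, 463 (4.55%) and 0. The medians of the 64 transcripts were 1.61 in shGLP and 1.64 in shHP1γ cells, beside 1.59 in shG9a cells. The 64 were chosen for rises of at least 2-fold in shGLP and shHP1γ cells. The medians there follow from that choice and cannot be compared with the shG9a median. A test that misses the threshold does not show that these responses were alike.

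**Figure D5:**
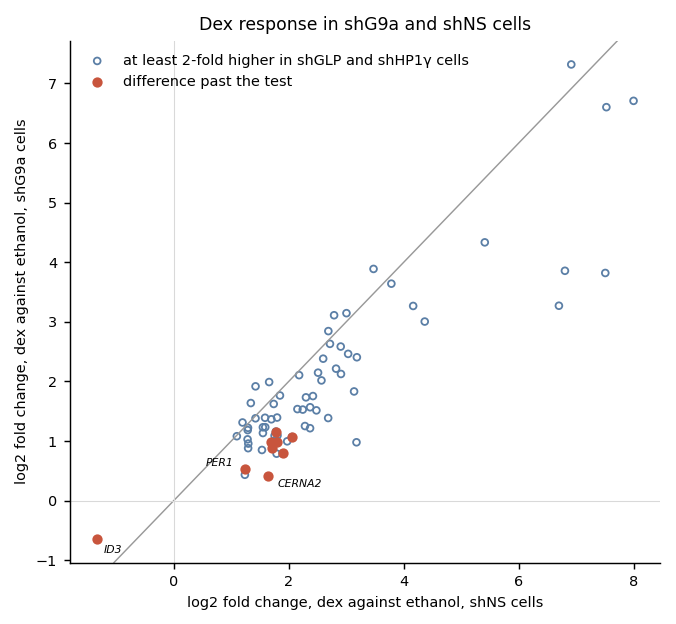
Log2 fold change of dex against ethanol in shNS cells (x axis) and shG9a cells (y axis) for 64 transcripts called at least 2-fold higher in both shGLP and shHP1γ cells (open circles) and for the 9 transcripts whose difference passed the test (red, 3 of them named); the line marks equal responses. Of the 64, 55 lie below the line, and all 9 lie nearer to 0 on the y axis than on the x axis.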

How the data were processed

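RNA from 24 Nalm6 libraries was sequenced. The authors trimmed paired-end reads, aligned them with HISAT2 to the hg19 (GRCh37) genome and assigned them to RefSeq genes with GenomicAlignments; tool versions, RefSeq release, counting mode and strand handling are not given in the sources used here. The deposited table holds whole-number counts per accession although it is named for CPM: its library totals differ, and it was read as raw counts (64519 accessions, 40144 at 0 in every library). A second deposited table holds the authors' own log2 fold changes and adjusted p-values and was not used.

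The tests used edgeR 4.0.16 under R 4.3.3 (quasi-likelihood F test, upper quartile scaling, more than 1 CPM in at least 2 of 24 libraries). 10167 accessions of 9386 genes were tested in 1 model of 8 groups and the replicate number over all 24 libraries, with Benjamini-Hochberg adjustment. The authors' correction for unwanted variation was replaced by this block. Same-numbered shG9a dex and ethanol libraries deviated together (r = 0.224, 0.106 and 0.446 across 4667 accessions), and the labels place replicates on different days. SEs are the log2 fold change divided by the root of F. Scripts were tested on simulated data. No library duplicated another replicate of its own group: the chi-square per degree of freedom between replicates was 3.41 to 39.8. Libraries of different groups were not compared in this way. The counting interval covers counting error only. Fitted folds of transcripts near 0 in ethanol depend on the prior count, so counts are given for OR7A5.

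Named transcripts are those at least 2-fold changed with the largest rises and falls (12 each way, mean of at least 1 CPM, 3 of 3 replicates), the 8 most abundant calls each way, the strongest differences between responses, a fixed list of receptor targets and coregulators, and up to 4 called members per gene list. The members and lists were chosen with earlier results of these data known. Alternatives were no block, fewer libraries, TMM scaling, DESeq2 1.42.0, other filters (none, or a mean of 5 CPM), counts summed per gene, and leaving out each replicate or each shG9a library. Gene positions are GENCODE's on GRCh37.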

Additional observations from a re-analysis of the deposited data

Results flagged for a closer look

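9 transcripts were singled out because the test of the difference itself placed their dex response in shG9a cells apart from that in shNS cells (edgeR's quasi-likelihood test, Benjamini-Hochberg adjustment over 10167 transcripts). Values are the shG9a minus the shNS log2 fold change, and all 9 transcripts moved in the same direction in both kinds of cells. ID3, whose response is a fall, differed by 0.70 (SE 0.095, adjusted p = 0.00185). For PER1 the difference was -0.72 (SE 0.11, adjusted p = 0.00344). Without the dex library of replicate 2, which held the lowest PER1 level with dex, the adjusted p was 0.00138. CYTH3, a guanine nucleotide exchange factor for ARF proteins, differed by -0.81 (SE 0.12, adjusted p = 0.00344). Its dex level was 204 ± 11.96 CPM in shG9a and 411 ± 32.2 CPM in shNS cells (mean ± SD, n = 3).

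The non-coding transcript CERNA2 differed by -1.23 (SE 0.21, adjusted p = 0.0124), and its own change in shG9a cells was not called (log2 fold change 0.41, adjusted p = 0.103, edgeR). The values of KCNK3, a potassium channel gene, and DISP3 were -0.99 (SE 0.17) and -0.82 (SE 0.14), both with an adjusted p of 0.0143. TMT1A, a methyltransferase gene, differed by -0.62 (SE 0.11, adjusted p = 0.015), DEPP1, a FOXO target, by -1.10 (SE 0.21, adjusted p = 0.0436) and BTNL9, a butyrophilin-like gene, by -0.72 (SE 0.14, adjusted p = 0.0454). Without the dex library of replicate 2 the adjusted p of these 9 ranged from 0.00138 to 0.0458 in the same edgeR test. Over all 15 alternatives ID3 and CYTH3 passed in 13, PER1 in 10, CERNA2 and KCNK3 in 8, DISP3 and TMT1A in 7, and BTNL9 and DEPP1 in 6, with adjusted p up to 0.9993. In shGLP and shHP1γ cells all 9 also changed less than in shNS cells, by log2 fold changes of -0.74 and -0.94 for ID3 and 0.80 and 0.89 for PER1, differences that rest on the same shNS libraries and were not tested here. No formal test for outlying samples was applied within groups of 3 libraries.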

How the results depend on the processing

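Of 82 called named transcripts 0 changed direction under any of up to 16 alternatives. 28 of 42 rises and 5 of 40 falls (BCL2, IL7R, ID3, KCNJ2 and PHLDA1) passed in every alternative that gave an adjusted p, and 3 rises and 20 falls were lost without the dex library of replicate 2. Without the replicate block 227 transcripts were called in place of 634 (154 higher and 73 lower), 78 at least 2-fold (5 of these lower), and 2 in place of 9 differed from the shNS response. With only the 6 shG9a libraries the counts were 145 (122 higher, 23 lower) and 71 at 2-fold (66 and 5), and with the 12 libraries of the shNS comparison 2. DESeq2 called 75 at 2-fold (65 higher, 10 lower) and 18 differences from shNS. With no filter 50 fell at least 2-fold, and 75, 35 and 23 responses differed from shNS, shGLP and shHP1γ. A mean of 5 CPM left 57 at 2-fold (51 higher, 6 lower) and gave a median response of the transcripts chosen on other libraries of 1.41 in place of 1.59, and counts summed per gene 1.53. Leaving out replicates or single libraries gave 158 to 845 calls (114 to 411 higher, 44 to 434 lower), 68 to 187 at 2-fold (61 to 118 higher, 5 to 69 lower), 0 to 13 differences from shNS, and medians from 1.56 to 1.65. The total of 634 moved by over 1.5 times without replicate 2 (222) or 3 (158), without the dex library of replicate 2 (333), and without the ethanol library of replicate 2 (318) or 3 (354).

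A fit of only the shG9a libraries without the dex library of replicate 2, added after seeing the data, called 990 transcripts, 554 of them lower. Log2 fold changes that turned sign were of transcripts with no call, given here with their ranges over the alternatives. NR3C1 (-0.15 to 0.56) was -0.12 without replicate 1 and -0.15 without the dex library of replicate 1. EHMT1 (-0.026 to 0.12) was -0.026 and -0.022 in the same settings. CBX3 (-0.24 to 0.15) was -0.24 without replicate 2, and -0.14 without the dex and -0.13 without the ethanol library of replicate 2. In the added fit CBX3 was -0.24. The causes were not tested.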

Other observations

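Some genes chosen as markers of the hormone's action had no called change in shG9a cells. Of the 21 tested glucocorticoid targets, 5 were not called, DUSP1 (log2 fold change 0.070), ERRFI1 (0.0081), RHOBTB2 (0.065), CRISPLD2 (0.65) and BIRC3 (0.80), and they are named after their values were seen. BIRC3, an inhibitor of apoptosis, had 0.390, 0.516 and 0.331 CPM in ethanol and 1.47, 0.503 and 0.349 CPM in dex, so that only the dex library of replicate 1 lay above all ethanol libraries, while its log2 fold change in shNS cells was 2.70. The difference between these responses did not pass (adjusted p = 0.73, edgeR). Among the H3K9 genes, KDM4C, KDM4B and PHF8 had log2 fold changes of 0.16, -0.20 and 0.34 with no call.

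Over the 64 transcripts chosen on shGLP and shHP1γ libraries, the median log2 ratio of dex to ethanol was 1.27, 1.32 and 1.37 in the shG9a replicate pairs 1, 2 and 3. The pair that holds the distant dex library thus lay between the others.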
